A study of Mus musculus with 180 samples.

Results

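Omipalisib, a small molecule that inhibits class I phosphoinositide 3-kinases (PI3K) and the kinase mTOR, was compared with its solvent DMSO in mouse macrophages stimulated with bacterial lipopolysaccharide (LPS). The samples were taken by their treatment label: the 3 samples given Omipalisib and the 6 samples given DMSO, 9 of the 180 samples of the series. The test took every gene whose normalized values averaged 10 or more across the 180 samples, 12714 of the 45070 genes in the table.

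The study set 58 kinase inhibitors against DMSO in bone marrow-derived macrophages of wild type male C57/BL6 mice stimulated with LPS, and sequenced their RNA. Cells received an inhibitor or DMSO for 1 h and then LPS at 10 ng/ml for 2 h, so both groups described here, and all other samples of the series, were stimulated and no unstimulated level can be given. The dose of each inhibitor was set from its affinity for a chosen kinase in a binding assay on kinase-capturing beads, IRAK3 for Omipalisib, so that doses differ between inhibitors. The DMSO samples come in 2 sets of 3, and the labels number the samples of every group 1 to 3. The cells were grown and differentiated in culture and are not macrophages taken from a tissue. The authors call the 3 replicates biological and independent, but neither the labels nor the methods say whether they came from separate animals or cultures. In the main test of genes, p-values measure only the spread between samples of the same group, estimated over all 59 treatment groups. They do not rest on the spread of the Omipalisib and DMSO samples alone, as the permutation p-values do.

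The deposited values are reads on exons, scaled by the authors on genes that did not vary and rounded to whole numbers, and are called normalized values here. Their total was 11834886, 12088642 and 11043189 in the Omipalisib samples 1, 2 and 3, and 9481416 to 11094387 in the DMSO samples (median 10331211). From the steps between low values, the reads on genes were estimated at 13800000, 12500000 and 17000000 with Omipalisib and at 11400000 to 13600000 in the 5 DMSO samples that gave an estimate. No pair of replicates was identical: log2 values of any 2 Omipalisib samples correlated at 0.982 to 0.987 across genes, and those of any 2 DMSO samples at 0.945 to 0.987. The share of normalized values on mitochondrially encoded genes was 1.95%, 2.19% and 1.29% with Omipalisib and 0.759% to 1.94% in the DMSO samples (median 0.989%). The difference of means, 0.660 percentage points, gave p = 0.0833 when all 84 assignments of the samples were permuted (exact, two-sided), where the smallest possible p is 0.0119. Without Omipalisib replicate 1, 2 and 3 in turn it was 0.592, 0.469 and 0.919 points (exact p = 0.179, 0.286 and 0.0357, the last being the smallest possible with 28 assignments). The 15 mitochondrially encoded genes had a median log2 fold change of 0.89, but none passed the test described below. A fit with this share and a block on the replicate number called 2603 genes higher and 1680 lower. With the block alone the counts were 2785 and 1733. The share as a cause of the other results was not tested.

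Markers of macrophages were abundant in all 9 samples. The receptor Csf1r, on which macrophages depend for growth and survival, had normalized values of 28125, 26382 and 26541 with Omipalisib and 24416 to 25418 (median 25088) with DMSO, and the lysozyme gene Lyz2, the most abundant of the list, had 91316, 90068 and 54949 and 44126 to 131174 (median 52826.5). The 27 macrophage genes summed to 355659, 359626 and 257159 in the Omipalisib samples and 208587 to 431844 in the DMSO samples (median 236002), ranges that overlap. Among markers of other cells, the 14 genes of neutrophils and their precursors summed to 1056, 935 and 592 against 640 to 1828 (median 952), with Cxcr2 the most abundant. The 11 T and NK cell genes summed to 617, 582 and 341 against 186 to 813 (median 316.5), most of it Cd28; Ncr1 and Gzma were at 0 in all 9 samples, and the T cell receptor gene Cd3e was at 0 with Omipalisib. The 8 B cell genes summed to no more than 24 in any sample, with Pax5 at 0 in all of them, and the 9 fibroblast and stromal genes to no more than 185. The 10 erythroid and mast cell genes summed to 39, 31 and 33 with Omipalisib and 7 to 25 with DMSO, almost entirely Kit, while the globin genes Hba-a1 and Hba-a2 were at 0. The 8 dendritic cell genes summed to 202, 334 and 212 against 122 to 189 (median 145), led by the chemokine receptor Xcr1, and the 7 osteoclast genes to 417, 467 and 447 against 334 to 400.0 (median 370.0). The most abundant osteoclast gene, Nfatc1, was not higher, at 189, 204 and 218 against 216 to 291 (median 253.5), and was lower by that test after scaling by the median of ratios (adjusted p = 0.0350). The sums of the erythroid and mast cell, dendritic cell and osteoclast lists lay higher in every Omipalisib sample than in any DMSO sample; their part in the other results was not tested. In bulk samples such as these, fewer cells of a type and less RNA per cell cannot be told apart.

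Class I PI3K phosphorylates a membrane lipid, and the product recruits the kinase AKT, which keeps FOXO transcription factors out of the nucleus and, through the TSC complex, turns on the mTOR complex mTORC1. Active mTORC1 promotes translation, ribosome production and sterol synthesis and holds back autophagy and the TFEB family that drives lysosomal genes. In macrophages the same pathway is engaged by growth factors such as M-CSF and by LPS through TLR4, and it is known to modulate the output of inflammatory genes.

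Fold changes are given as Omipalisib minus DMSO on the log2(normalized value + 1) scale with their standard error, and adjusted p-values are from limma with the Benjamini-Hochberg method over all genes tested; a gene is said to have risen or fallen where the adjusted p is under 0.05. By this rule 2227 genes were higher with Omipalisib, 17.5% of those tested, and 1037 were lower, 8.16%. In 1886 genes (14.8%) all 3 Omipalisib values lay above all 6 DMSO values, and in 788 (6.2%) all 3 lay below. The median log2 fold change over all tested genes was 0.12, so the scaling bears on the balance of the calls: after scaling by the median of ratios instead, the median was 0.02, a shift of 0.10, and 1713 genes were higher and 1751 lower. The share of calls that were higher was thus 68.2% with the authors' scaling and 49.5% with the other. The 2 DMSO sets held 0 genes apart from each other by limma at that threshold and 310 (2.44%) at an unadjusted p under 0.05. Same-numbered samples of both sets deviate together, so that this fit, which has no block on the number, can miss differences; with the block the counts were 0 and 465 (3.66%). In a fit of the compared groups alone 1366 genes were higher and 505 lower, and with a block on the replicate number 2785 and 1733. Without Omipalisib replicate 2 the higher genes numbered 1470, and without Omipalisib replicate 1 the lower genes numbered 629. Genes that rose had a median cDNA length of 3100.0 bases and those that fell 2489, beside 2807 over all tested genes. They differed in level as well: the median of the DMSO means was 180 for genes that rose and 403 for those that fell, beside 167.8 over all.

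**Figure D1:**
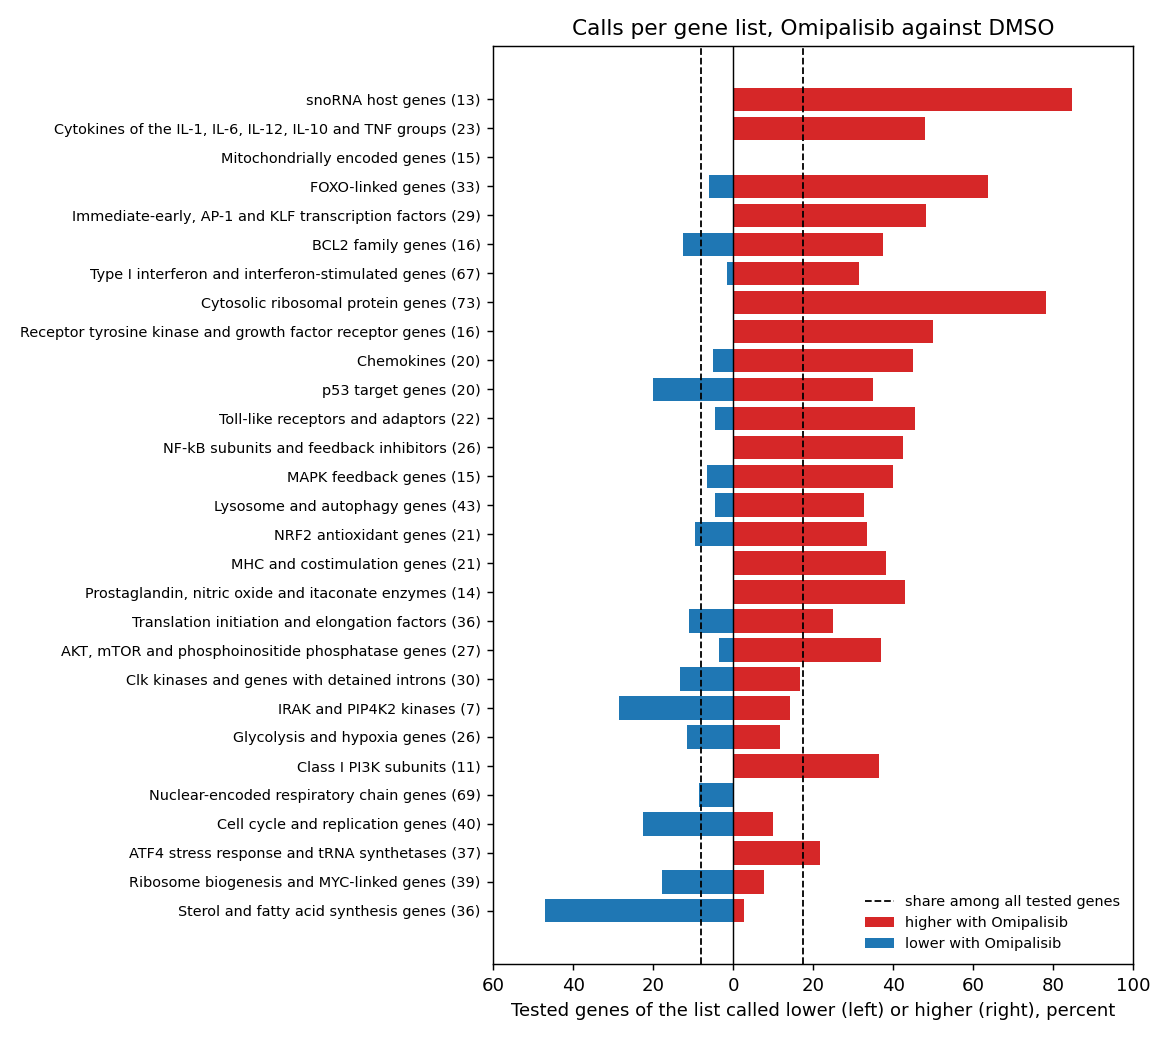
Share of the tested members of each gene list that passed the test, in percent (horizontal axis), with genes lower with Omipalisib drawn to the left and genes higher drawn to the right; the number of tested members stands in brackets and dashed lines mark the shares over all tested genes, 8.16% and 17.5%. Lists of cell type markers are left out. Of the lists drawn, sterol synthesis genes reach furthest to the left, and snoRNA host genes and ribosomal protein genes furthest to the right.

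Of 11 genes of class I PI3K subunits, the drug's own targets, and of their regulators 4 rose and none fell, with a median log2 fold change of 0.01 beside 0.12 over all tested genes; with the other scaling 4 rose, 3 fell and the median was -0.09. Pik3r1, which encodes the p85 alpha regulatory subunit, stood at 1798, 1836 and 1728 with Omipalisib and at 746 to 1068 (median 1018.5) with DMSO, a log2 fold change of 0.89 ± 0.12 (adjusted p = 6.21e-10). The catalytic subunit gene Pik3ca stood at 201, 201 and 177 against 51 to 127 (median 74.5), a change of 1.34 ± 0.29 (adjusted p = 1.12e-04). In both genes the Omipalisib values lay above all DMSO values. Pik3cb, another catalytic subunit gene, stood at 328, 346 and 272 against 84 to 273 (median 207.5), with 1 Omipalisib sample inside the DMSO range (0.77 ± 0.22, adjusted p = 0.00428). The call of Pik3cb was lost in a fit of the compared groups alone, adjusted p = 0.112, and against the second DMSO set alone, adjusted p = 0.0835. Pik3ip1, whose product restrains PI3K, stood at 51, 77 and 84 against 23 to 49 (median 37), a change of 0.96 ± 0.33 (adjusted p = 0.0211). The call of Pik3ip1 was lost in 5 of 21 other settings, with the highest adjusted p, 0.109, without Omipalisib replicate 3. The catalytic subunit genes most used by leukocytes, Pik3cd and Pik3cg, did not pass the test. Pik3cd stood at 1017, 937 and 1010 against 862 to 1477 (median 1145), and Pik3cg at 589, 664 and 408 against 796 to 973 in 5 samples and 321 in the other (median 897). Both were lower with Omipalisib with the other scaling (adjusted p = 0.0224 and 0.0108) and without DMSO set 1 replicate 3 (adjusted p = 0.0224 and 0.00140). Pik3cg was lower also against the second DMSO set alone (adjusted p = 0.00884), without Omipalisib replicate 2 (adjusted p = 0.0385) and with a block on the replicate number (adjusted p = 0.0349).

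Among 27 genes of AKT, mTOR and the phosphoinositide phosphatases, 10 rose and 1 fell (median 0.19; 8 and 5 with the other scaling); 5 rose in a fit of the compared groups alone and against the second DMSO set alone. Mtor itself was not among them, at 156, 159 and 171 with Omipalisib and 110 to 309 (median 168.5) with DMSO (-0.15 ± 0.21, adjusted p = 0.619). Sgk1, a kinase related to AKT, had 3938, 4399 and 2631 against 1259 to 1479 (median 1311) and rose by 1.42 ± 0.13 (adjusted p = 3.27e-18). Tsc1, a subunit of the complex that restrains mTORC1, had 166, 142 and 133 against 49 to 105 (median 75.5) and rose by 0.98 ± 0.16 (adjusted p = 8.45e-07). Phlpp1, a phosphatase that removes phosphate from AKT, and the mTOR complex genes Mlst8 and Rptor rose by 1.38 ± 0.26, 1.02 ± 0.20 and 0.83 ± 0.17 (adjusted p = 1.38e-05, 2.75e-05 and 4.40e-05). All 5 genes were separated from DMSO in every sample. The one member that fell was Eif4ebp2, a translation repressor that mTORC1 inactivates, at 65, 64 and 49 against 71 to 139 (median 102), a change of -0.74 ± 0.26 (adjusted p = 0.0250). The call of Eif4ebp2 was lost in 5 of 21 other settings, with the highest adjusted p, 0.135, without Omipalisib replicate 3. Of the 7 genes of the IRAK kinases, which carry the signal of Toll-like receptors, and the PIP4K2 lipid kinases, 1 rose and 2 fell under either scaling (median 0.03, and -0.08 with the other scaling). Irak2 rose from a DMSO median of 1422.5 (1281 to 1541) to 2303, 2009 and 2177. Irak3 fell from a DMSO median of 470.5 (324 to 613) to 306, 286 and 301, and Pip4k2b from a DMSO median of 29.5 (26 to 41) to 14, 14 and 10. The log2 fold changes of the 3 genes were 0.62 ± 0.09, -0.59 ± 0.18 and -1.25 ± 0.29 (adjusted p = 2.59e-08, 0.00775 and 3.22e-04). The groups did not overlap in any of the 3 genes, and the call of Irak3 was lost in a fit of the compared groups alone (adjusted p = 0.0548).

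Of 33 tested genes linked to FOXO factors 21 rose and 2 fell, with a median log2 fold change of 0.88, and the counts were the same with the other scaling. Gabarapl1, which encodes a protein of the autophagosome membrane, had normalized values of 2689, 2799 and 2461 with Omipalisib and 573 to 932 (median 738) with DMSO, and rose by 1.81 ± 0.14 on the log2 scale (adjusted p = 1.16e-22). Klf6, a zinc finger transcription factor, had 16775, 19289 and 14517 against 6907 to 7442 in 5 samples and 5409 in the other (median 6943), a change of 1.30 ± 0.11 (adjusted p = 3.85e-20). Gadd45a, a stress-induced gene that slows the cell cycle, had 190, 193 and 110 against 24 to 36 (median 29.5), a change of 2.41 ± 0.26 (adjusted p = 9.23e-14). No Omipalisib value of these 3 genes came near the DMSO range. Ccng2, an atypical cyclin that restrains proliferation, and Atg14, which starts autophagosome formation, rose by 1.51 ± 0.18 and 1.36 ± 0.17 (adjusted p = 2.19e-11 and 1.01e-10). Of the FOXO genes themselves, Foxo3 had 94, 123 and 74 against 17 to 35 in 5 samples and 68 in the other (median 26.5) and rose by 1.71 ± 0.36 (adjusted p = 9.33e-05). Foxo4 had 20, 32 and 17 against 1 to 13 (median 10) and rose by 1.50 ± 0.44 (adjusted p = 0.00616). The call of Foxo4 was lost in 4 of 21 other settings, with the highest adjusted p, 0.142, against the second DMSO set alone. Sesn1, which encodes a sensor that restrains mTORC1, went the other way, from a DMSO median of 231.5 (187 to 387) to 78, 116 and 51 (-1.73 ± 0.30, adjusted p = 1.37e-06). Trib1, a pseudokinase gene, was the other member that fell (-0.68 ± 0.26, adjusted p = 0.0407). The call of Trib1 was lost in 7 of 21 other settings, with the highest adjusted p, 0.321, without Omipalisib replicate 3.

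Several receptors and adaptors that feed the pathway also rose. Of 16 tested receptor tyrosine kinase and growth factor receptor genes 8 rose and none fell, at a median of 0.55; with the other scaling 8 rose and 1 fell. Irs2, the adaptor that links insulin and IGF1 receptors to PI3K, stood at 176, 263 and 121 against 19 to 52 (median 35; adjusted p = 8.47e-07). Insr, the insulin receptor, and Igf1r, the IGF1 receptor, stood at 86, 89 and 102 against 29 to 75 (median 57) and at 111, 122 and 103 against 45 to 67 (median 55). Their log2 fold changes were 0.80 ± 0.20 and 1.01 ± 0.19 (adjusted p = 0.00133 and 8.47e-06), and in all 3 genes every Omipalisib value was above every DMSO value. For Insr the call was lost in a fit of the compared groups alone (adjusted p = 0.0708) and against the second DMSO set alone (adjusted p = 0.0529). Csf2rb, the shared beta chain of the GM-CSF receptor, rose by 0.98 ± 0.13 (adjusted p = 2.71e-10). Mertk, a receptor for the uptake of dying cells, had 450, 331 and 463 against 148 to 203 (median 174) and rose by 1.24 ± 0.17 (adjusted p = 1.06e-09). Insr and Irs2 also stand in the FOXO list.

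Many genes of sterol synthesis fell. Among 36 tested sterol and fatty acid synthesis genes 17 fell and 1 rose, with a median log2 fold change of -0.35 (18 and 1 with the other scaling). Msmo1, a C4-demethylating enzyme of cholesterol synthesis, had normalized values of 305, 318 and 226 with Omipalisib and 944 to 1429 (median 1344.5) with DMSO (-2.18 ± 0.11, adjusted p = 9.25e-37). Cyp51, the lanosterol demethylase, had 259, 244 and 242 against 1199 to 1280 in 5 samples and 999 in the other (median 1224.5), a change of -2.26 ± 0.12 (adjusted p = 1.74e-35). In both genes the highest Omipalisib value lay far below the lowest DMSO value. Hmgcs1, which makes HMG-CoA, fell from a DMSO median of 2020 (1604 to 2310) to 507, 501 and 461 (adjusted p = 4.34e-28). The reductase gene Hsd17b7 fell from a DMSO median of 169.5 (138 to 235) to 54, 47 and 52 and Sc5d, a desaturase of late cholesterol synthesis, from a DMSO median of 636.5 (488 to 710) to 233, 242 and 246. The isomerase Idi1, the epoxidase Sqle, the desaturase Scd2 and the cholesterol carrier Stard4 fell by 1.71, 1.38, 1.56 and 1.32 on the log2 scale, and none of their groups overlapped. Srebf2, the transcription factor that drives these genes, fell less, from a DMSO median of 2903.5 (2328 to 4342) to 1681, 1628 and 1732 (-0.82 ± 0.18, adjusted p = 1.56e-04). The member that rose was Insig2, which retains that factor in the endoplasmic reticulum, at 402, 336 and 403 against 141 to 235 (median 181.5), a change of 1.06 ± 0.14 (adjusted p = 4.95e-10). Fatty acid synthase, Fasn, did not pass the test, at 498, 404 and 579 against 222 to 822 (median 551). Lipg, an endothelial type lipase that stands outside the list, fell from a DMSO median of 899.5 (672 to 1790) to 203, 135 and 292 (-2.27 ± 0.38, adjusted p = 7.87e-07).

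**Figure D2:**
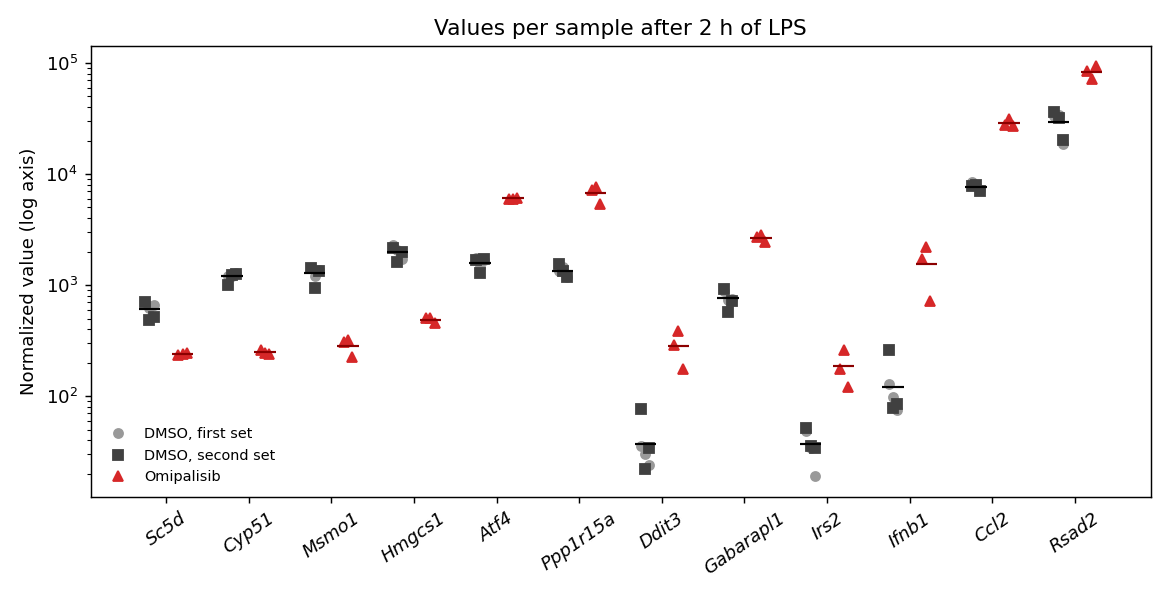
Normalized values on a log axis for 12 genes in each sample: triangles are the 3 Omipalisib samples, circles and squares the samples of both DMSO sets, and short lines the group means. The first 4 genes, of sterol synthesis, lie lower in every Omipalisib sample, and the 8 stress, autophagy, insulin signalling and inflammatory genes that follow lie higher in every Omipalisib sample.

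The promoters of sterol genes that moved together were searched for the core of the sterol regulatory element, TCACNCCA (N is any base), on both strands from 250 bases before to 50 bases after each gene's start. RefSeq promoters on GRCm38.p6 were matched to 9131 of the 12714 tested genes, 71.8%, so a comparison of motif shares between higher and lower genes is void. Among all these promoters 331 (3.63%) held the letters; among the sterol genes that fell, 10 of 17 had an entry and 3 of those held them. The 3 are shown with the match in capitals, since they include the factor itself and 2 of its enzymes: Hmgcs1 at chr13:119690101-119690400 on the plus strand, Msmo1 at chr8:64733529-64733828 on the minus strand and Srebf2 at chr15:82147019-82147318 on the plus strand. A match describes the letters only.
Hmgcs1: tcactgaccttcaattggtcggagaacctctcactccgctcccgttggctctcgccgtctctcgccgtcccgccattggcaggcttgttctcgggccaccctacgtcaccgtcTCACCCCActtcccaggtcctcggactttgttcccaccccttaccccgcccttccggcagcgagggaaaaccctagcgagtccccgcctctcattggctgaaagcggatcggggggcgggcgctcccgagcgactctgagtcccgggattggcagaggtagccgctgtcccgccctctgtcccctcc
Msmo1: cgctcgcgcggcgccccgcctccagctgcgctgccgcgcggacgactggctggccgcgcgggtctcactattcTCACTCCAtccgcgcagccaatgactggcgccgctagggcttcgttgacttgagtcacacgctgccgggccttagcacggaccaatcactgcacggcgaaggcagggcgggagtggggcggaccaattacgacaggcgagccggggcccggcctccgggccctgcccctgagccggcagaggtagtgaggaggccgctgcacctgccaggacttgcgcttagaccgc
Srebf2: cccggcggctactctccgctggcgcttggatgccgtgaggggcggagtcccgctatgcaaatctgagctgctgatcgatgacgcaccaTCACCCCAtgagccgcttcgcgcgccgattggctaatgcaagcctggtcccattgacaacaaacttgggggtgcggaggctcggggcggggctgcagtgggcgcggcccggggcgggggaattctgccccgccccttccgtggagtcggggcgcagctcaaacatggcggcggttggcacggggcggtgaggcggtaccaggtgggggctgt

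Atf4, which encodes the transcription factor of the integrated stress response, had the smallest adjusted p among genes that rose: its normalized values were 6009, 6011 and 6143 with Omipalisib and 1293 to 1753 (median 1671) with DMSO, a log2 fold change of 1.93 ± 0.09 (adjusted p = 8.16e-39). The 3 Omipalisib samples were nearly equal and all far above DMSO. Of the 37 tested genes of the ATF4 response and the tRNA synthetases, however, 8 rose and none fell, with a median of -0.11. Among all tested genes 17.5% rose and 8.16% fell, so the rises were not far from the share over all genes. With the other scaling 7 rose and 6 fell, where 1713 and 1751 of all 12714 did. Ppp1r15a, which directs dephosphorylation of the initiation factor eIF2, had 7253, 7604 and 5354 against 1182 to 1539 (median 1342), a change of 2.32 ± 0.14 (adjusted p = 1.22e-29). Ddit3, the stress factor CHOP, had 289, 383 and 176 against 22 to 36 in 5 samples and 76 in the other (median 32), a change of 2.96 ± 0.46 (adjusted p = 1.21e-07), with the groups apart. The amino acid transporter genes Slc38a2, Slc3a2 and Slc7a11 rose by 2.11 ± 0.20, 1.28 ± 0.14 and 1.12 ± 0.22 (adjusted p = 1.93e-16, 6.42e-14 and 1.86e-05). Nupr1, a stress-induced chromatin protein, had 3516, 3170 and 2109 against 343 to 1283 (median 446), a change of 2.43 ± 0.51 (adjusted p = 9.98e-05). Other members known as targets of ATF4 did not pass the test. Asparagine synthetase, Asns, stood at 300, 310 and 428 against 217 to 442 (median 326). The glutathione-degrading Chac1 stood at 3, 12 and 5 against 5 to 14 (median 6.5), and Trib3 at 42, 44 and 76 against 35 to 93 (median 58). Among the synthetases of the list only the asparaginyl enzyme gene Nars rose, by 0.33 ± 0.13 (adjusted p = 0.0444). The call of Nars was lost in 13 of 21 other settings, with the highest adjusted p, 0.160, without DMSO set 2 replicate 2.

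The composite element TGATGNAA, to which ATF4 binds with C/EBP factors, was searched in the same windows on both strands. It was found in 225 (2.46%) of all promoters and in 11 of the 30 list members with an entry; of the 7 that rose and had an entry, 2 held it. These 2 promoters are shown because their genes rose while most members with the letters did not: Nupr1 at chr7:126625421-126625720 and Slc7a11, which holds it on each strand, at chr3:50443564-50443863, both on the minus strand. The forkhead letters GTAAACA were likewise found in 240 promoters (2.63%) and in 3 of 29 FOXO-linked promoters, 2 of genes that rose and 1 of a gene that fell. Shown is that of Bcl2l11, which rose, a death-promoting BCL2 family gene, at chr2:128125788-128126087 on the plus strand. Capitals mark the matches, which are a description of letters only.
Nupr1: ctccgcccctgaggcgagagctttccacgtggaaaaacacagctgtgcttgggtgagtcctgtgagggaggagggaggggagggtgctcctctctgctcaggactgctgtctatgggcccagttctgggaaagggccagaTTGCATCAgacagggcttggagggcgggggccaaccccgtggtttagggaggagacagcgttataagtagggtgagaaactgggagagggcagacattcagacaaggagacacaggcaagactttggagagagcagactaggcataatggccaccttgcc
Slc7a11: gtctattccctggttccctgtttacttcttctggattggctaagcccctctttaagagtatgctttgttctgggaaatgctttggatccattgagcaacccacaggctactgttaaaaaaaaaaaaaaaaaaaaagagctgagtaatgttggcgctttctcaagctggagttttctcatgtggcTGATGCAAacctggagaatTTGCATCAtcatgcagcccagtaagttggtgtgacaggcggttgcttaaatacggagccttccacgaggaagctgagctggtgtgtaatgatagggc
Bcl2l11: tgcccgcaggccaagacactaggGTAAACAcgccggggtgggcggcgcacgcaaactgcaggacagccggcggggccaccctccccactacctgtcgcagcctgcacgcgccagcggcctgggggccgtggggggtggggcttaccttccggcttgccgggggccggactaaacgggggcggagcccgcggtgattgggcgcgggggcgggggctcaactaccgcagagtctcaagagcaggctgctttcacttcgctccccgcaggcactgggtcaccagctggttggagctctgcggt

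Genes of cell stress and survival moved in both directions. Of 20 tested p53 target genes 7 rose and 4 fell (median 0.38), and with the other scaling 7 and 5. A filter at a mean of 50 left 17 members, of which 6 rose and 5 fell. Their median was 0.08, beside 0.09 over all genes with that filter. Mdm2, the ligase that degrades p53, had 6506, 6644 and 5790 against 1721 to 2027 (median 1873), a change of 1.75 ± 0.14 (adjusted p = 6.51e-21). Plk2, a polo-like kinase, rose from a DMSO median of 1072 (1004 to 1122 in 5 samples, 1394 in the other) to 2775, 2638 and 2872 (1.32 ± 0.13, adjusted p = 7.11e-16). Gadd45b, a sensor of stress that activates p38 signalling, rose from a DMSO median of 3202.5 (2753 to 3998) to 14121, 16726 and 10646 (2.06 ± 0.18, adjusted p = 2.20e-18). The nuclease Aen and the cyclin Ccng1 fell, from a DMSO median of 432 (367 to 470) to 233, 256 and 240 and from a DMSO median of 1134 (927 to 1279) to 632, 709 and 714. In these 5 genes the groups were fully apart; the others that fell were Sesn1, given above, and the endoplasmic reticulum protein gene Ei24 (-0.87, adjusted p = 2.40e-04). Among 16 tested BCL2 family genes 6 rose and 2 fell under either scaling (median 0.63, and 0.53 with the other scaling). The death-promoting Pmaip1, Bid, Bbc3 and Bcl2l11 rose by 2.38 ± 0.28, 0.92 ± 0.16, 1.25 ± 0.28 and 0.56 ± 0.08 (adjusted p = 5.60e-12, 1.29e-06, 2.43e-04 and 8.44e-09). The survival gene Mcl1 rose too, at 1597, 1821 and 1326 against 572 to 1079 (median 754), a change of 1.06 ± 0.19 (adjusted p = 3.33e-06). Bik, a death-promoting member, fell from a DMSO median of 26 (18 to 33) to 13, 12 and 7 (-1.27 ± 0.25, adjusted p = 3.14e-05), as did Bmf (-0.78, adjusted p = 0.0436). The call of Bmf was lost in 11 of 21 other settings, with the highest adjusted p, 0.159, without Omipalisib replicate 2. Among 21 tested antioxidant genes linked to NRF2, 7 rose and 2 fell (median 0.25; 5 and 3 with the other scaling); 3 rose against the second DMSO set alone and 2 without Omipalisib replicate 2. Osgin1, an oxidative stress gene, rose most clearly, from a DMSO median of 20.5 (12 to 40) to 170, 210 and 100 (2.83 ± 0.34, adjusted p = 9.93e-12). The 2 that fell were the heme oxygenase gene Hmox1 (-0.38, adjusted p = 0.00627) and the thioredoxin reductase gene Txnrd1 (-0.28, adjusted p = 0.0207). The call of Hmox1 was lost in 3 of 21 other settings, with the highest adjusted p, 0.0799, without Omipalisib replicate 3. The call of Txnrd1 was lost in 5 of 21 other settings, with the highest adjusted p, 0.144, in a fit of the compared groups alone.

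Of 43 lysosome and autophagy genes 14 rose and 2 fell, at a median of 0.27 (13 and 4 with the other scaling). Gabarapl1, given above, had the smallest adjusted p of the list. Regulators of nutrient sensing at the lysosome rose too: Flcn, which encodes folliculin, had 312, 412 and 354 against 76 to 163 (median 121.5), a change of 1.57 ± 0.25 (adjusted p = 1.64e-07). Its partner genes Fnip1 and Fnip2 had 793, 801 and 632 against 80 to 320 (median 219), and 2010, 2160 and 1097 against 179 to 797 (median 441.5). Their changes were 1.84 ± 0.30 and 2.01 ± 0.35 (adjusted p = 4.91e-07 and 2.49e-06). Ulk1, the kinase that starts autophagy, rose from a DMSO median of 56.5 (41 to 71) to 160, 127 and 121 (1.24 ± 0.22, adjusted p = 1.89e-06). In all 4 genes every Omipalisib sample was above every DMSO sample. Sqstm1, an autophagy receptor, rose less, from a DMSO median of 60234 (48792 to 75663) to 80944, 77684 and 112063 (0.57 ± 0.13, adjusted p = 4.35e-04). Tfe3, a transcription factor of lysosomal genes, and Atg5, needed for autophagosome growth, fell by 0.47 and 0.50 (adjusted p = 2.13e-05 and 0.00201). Tfeb, the namesake of that factor family, had no call, at 111, 163 and 100 against 70 to 106 (median 89.5). Outside the list, Atg12, which is joined to the Atg5 protein, had 1255, 1244 and 1313 against 322 to 402 (median 367.5), and rose by 1.80 ± 0.10 (adjusted p = 2.05e-32).

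Of the 73 tested cytosolic ribosomal protein genes 57 rose and none fell, with a median of 0.56; with the other scaling 40 rose, none fell and the median was 0.46, and without Omipalisib replicate 1 or 2 the number that rose was 36. The rises were small: Rpl10a had 4469, 4614 and 4422 against 2990 to 3626 (median 3304.5), a change of 0.45 ± 0.07 (adjusted p = 1.50e-07). Rps26 had 7723, 7914 and 6583 against 4747 to 5405 (median 4983), a change of 0.55 ± 0.10 (adjusted p = 3.44e-06). Over the 73 genes the log2 fold change ran from 0.14 to 0.94. Of 39 ribosome biogenesis and MYC-linked genes 3 rose and 7 fell (median -0.23; 2 and 13 with the other scaling), but only 1 fell without Omipalisib replicate 1 and 3 without Omipalisib replicate 2. Npm1, the nucleolar chaperone nucleophosmin, and Polr1c, a subunit shared by RNA polymerases I and III, rose by 0.77 ± 0.15 and 0.49 ± 0.11 (adjusted p = 1.27e-05 and 2.52e-04). Ppan, a factor of large subunit assembly, fell from a DMSO median of 274.5 (164 to 332) to 123, 98 and 162 (-0.98 ± 0.30, adjusted p = 0.00850). The call of Ppan was lost without Omipalisib replicate 2, adjusted p = 0.0892. The other member that rose was the polyamine synthesis gene Odc1 (0.82, adjusted p = 0.0473). The call of Odc1 was lost in 11 of 21 other settings, with the highest adjusted p, 0.222, without Omipalisib replicate 2. Among 36 initiation and elongation factors 9 rose and 4 fell (median 0.21), where 17.5% and 8.16% of all tested genes did. With the other scaling 6 rose and 5 fell. The helicase gene Eif4a2 had 477, 475 and 459 against 164 to 310 (median 210.5) and rose by 1.14 ± 0.16 (adjusted p = 4.11e-09). Eif1 rose by 0.51 ± 0.07 (adjusted p = 9.25e-09). Eif1ax fell from a DMSO median of 1046.5 (745 to 1174) to 619, 664 and 690 (-0.61 ± 0.17, adjusted p = 0.00532). The others that fell were Eif2s1 (-0.33, adjusted p = 0.0425), Eif2b3 (-0.74, adjusted p = 0.0270) and Eif5a (-0.59, adjusted p = 0.00780). The call of Eif2s1 was lost in 9 of 21 other settings, with the highest adjusted p, 0.164, against the second DMSO set alone. The call of Eif2b3 was lost in 6 of 21 other settings, with the highest adjusted p, 0.204, without Omipalisib replicate 1. The call of Eif5a was lost in a fit of the compared groups alone, adjusted p = 0.0537, and without Omipalisib replicate 1, adjusted p = 0.0657.

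Host genes of small nucleolar RNAs, whose spliced transcripts are mostly degraded during translation, rose in 11 of 13 tested cases and fell in none, at a median of 1.54, and 10 rose with the other scaling; a filter at a mean of 50 left 6 members, of which 5 rose. Snhg6 had 202, 220 and 172 against 46 to 74 (median 56.5), a change of 1.76 ± 0.20 (adjusted p = 6.21e-13). Zfas1 had 417, 406 and 375 against 49 to 117 (median 78.5), a change of 2.41 ± 0.29 (adjusted p = 1.04e-11). Snhg5 had 128, 128 and 87 against 11 to 20 (median 16.5), a change of 2.74 ± 0.35 (adjusted p = 9.30e-11). The groups were apart in all 3, and Snhg1, lower in level, moved alike from a DMSO median of 7 (3 to 18) to 57, 69 and 36. Of 30 genes of the Clk kinases and of genes known for detained introns 5 rose and 4 fell, at a median of 0.07. Among all tested genes 17.5% rose and 8.16% fell, so the rises were near the share over all genes. With the other scaling 3 rose and 5 fell (median -0.04), where 1713 and 1751 of all 12714 did. In a fit of the compared groups alone 1 rose. Clk4, a kinase of splicing factors, rose from a DMSO median of 102 (97 to 109 in 5 samples, 53 in the other) to 192, 206 and 146 (0.95 ± 0.20, adjusted p = 1.06e-04). The splicing factor gene Srsf1 fell from a DMSO median of 275.5 (191 to 424) to 164, 181 and 131 (-0.83 ± 0.21, adjusted p = 0.00135). The others that rose were Clk1 (1.00, adjusted p = 0.0240), Clk3 (0.34, adjusted p = 0.0129), Rbm5 (0.35, adjusted p = 0.0230) and Neat1 (1.01, adjusted p = 0.00288). The call of Clk1 was lost in 6 of 21 other settings, with the highest adjusted p, 0.222, without Omipalisib replicate 2. The call of Clk3 was lost in 4 of 21 other settings, with the highest adjusted p, 0.0886, without Omipalisib replicate 1. The call of Rbm5 was lost in 6 of 21 other settings, with the highest adjusted p, 0.130, against the first DMSO set alone. The call of Neat1 was lost in a fit of the compared groups alone, adjusted p = 0.0555, and without Omipalisib replicate 3, adjusted p = 0.0519. The others that fell were Srsf6 (-0.80, adjusted p = 0.0133), Srsf7 (-0.44, adjusted p = 0.0156) and Tra2b (-0.53, adjusted p = 0.0127). The call of Srsf6 was lost in 3 of 21 other settings, with the highest adjusted p, 0.0710, against the first DMSO set alone. The call of Srsf7 was lost in 3 of 21 other settings, with the highest adjusted p, 0.104, without Omipalisib replicate 1. The call of Tra2b was lost in 4 of 21 other settings, with the highest adjusted p, 0.156, without Omipalisib replicate 2.

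Of all tested members of the gene lists, the largest rise was at Ifnb1, the gene of interferon beta. Its normalized values were 1727, 2207 and 726 with Omipalisib and 75 to 129 in 5 samples and 262 in the other (median 92.5) with DMSO, a log2 fold change of 3.67 ± 0.40 (adjusted p = 1.37e-13). Every Omipalisib sample was above the highest DMSO sample, though the Omipalisib samples themselves ranged widely. Of 67 type I interferon and interferon-stimulated genes 21 rose and 1 fell (median 0.57; 15 and 2 with the other scaling), but 8 rose against the second DMSO set alone and 11 without Omipalisib replicate 1 or 3. Rsad2, an antiviral enzyme, had 85142, 71241 and 92964 against 18749 to 36278 (median 32738.5), a change of 1.55 ± 0.29 (adjusted p = 8.49e-06). Oasl1, an antiviral protein of the oligoadenylate synthetase family, had 13397, 13941 and 12879 against 4255 to 8130 (median 6498), a change of 1.13 ± 0.21 (adjusted p = 8.13e-06). Gbp3, an interferon-induced GTPase, had 3582, 3136 and 2988 against 932 to 2316 (median 1490.5), a change of 1.17 ± 0.34 (adjusted p = 0.00541). Members without a call include the antiviral GTPase gene Mx1, at 2623, 2859 and 3292 against 936 to 3697 (median 2446). Others were the chemokine gene Cxcl10, at 110518, 94208 and 96563 against 56043 to 112277 (median 61486), and Isg15, a ubiquitin-like modifier, at 4377, 5431 and 3242 against 1096 to 3901 (median 1671.5). The Omipalisib and DMSO values of these 3 genes overlapped. Isg15 was higher by the test in a fit of the compared groups alone (adjusted p = 0.0309) and without DMSO set 2 replicate 1 (adjusted p = 0.0266). With a block on the replicate number it was higher as well (adjusted p = 0.0188). The single member that fell was Ifnar1, a chain of the type I interferon receptor, from a DMSO median of 3631 (3459 to 3931 in 5 samples, 4866 in the other) to 2432, 2135 and 2391 (-0.72 ± 0.11, adjusted p = 9.29e-08).

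Of 23 tested cytokine genes of the IL-1, IL-6, IL-12, IL-10 and TNF groups 11 rose and none fell, at a median of 0.96, and with the other scaling 9 rose and 1 fell. Tnfsf14, the ligand LIGHT, had 656, 880 and 492 with Omipalisib and 66 to 161 (median 125.5) with DMSO (2.47 ± 0.25, adjusted p = 4.05e-15). Tnfsf15, a costimulatory ligand of T cells, had 969, 864 and 1232 against 142 to 323 (median 236.5), a change of 2.15 ± 0.35 (adjusted p = 2.70e-07). Il1rn, the antagonist of the IL-1 receptor, had 20349, 17060 and 14548 against 3777 to 8821 (median 4874), a change of 1.69 ± 0.34 (adjusted p = 3.89e-05). All values of these 3 genes were separated by group. Il12b, a subunit of IL-12 and IL-23, rose from a DMSO median of 1657.5 (1282 to 1936) to 3855, 3534 and 3620 (1.19 ± 0.29, adjusted p = 7.06e-04). The cytokine genes best known from LPS stimulation had no call. Tnf stood at 9042, 12784 and 9895 against 6668 to 8932 (median 7597; adjusted p = 0.297). Il6 stood at 1072, 954 and 1173 against 337 to 757 (median 568.5; adjusted p = 0.0600), and Il1b at 3899, 4114 and 2977 against 2842 to 6751 (median 3731.5; adjusted p = 0.890). In Tnf and Il6 the Omipalisib values still lay above all DMSO values, whereas in Il1b they lay within them. Il6 was higher by the test in a fit of the compared groups alone (adjusted p = 0.0151) and without DMSO set 2 replicate 1 (adjusted p = 0.0371). With a block on the replicate number it was higher as well (adjusted p = 0.0329).

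Among 20 tested chemokine genes 9 rose and 1 fell (median 0.53; 8 and 1 with the other scaling). Ccl2, which attracts monocytes, had 27618, 31115 and 27303 against 6977 to 8431 (median 7788), a log2 fold change of 1.90 ± 0.12 (adjusted p = 2.81e-28), with the samples of each group close together. The neutrophil attractants Cxcl2 and Cxcl1 had 5154, 5870 and 4297 against 1328 to 1842 (median 1734), and 2117, 2277 and 1778 against 622 to 786 (median 645.5). Both rose, by 1.62 ± 0.17 and 1.60 ± 0.19 (adjusted p = 2.21e-14 and 1.37e-11). Ccl4 rose from a DMSO median of 59913 (53159 to 83174) to 139316, 127837 and 119756 (1.04 ± 0.20, adjusted p = 1.61e-05). The membrane-bound chemokine gene Cx3cl1 was the one that fell, from a DMSO median of 676 (394 to 975) to 176, 246 and 326 (-1.38 ± 0.35, adjusted p = 0.00152). Of 26 NF-kB subunits and feedback inhibitors 11 rose and none fell (median 0.35), and with the other scaling 5 rose and 2 fell. Zfp36l2, which destabilizes mRNAs with AU-rich elements, stood at 170, 221 and 95 against 8 to 25 (median 20), a change of 3.05 ± 0.35 (adjusted p = 1.07e-12). The adhesion molecule gene Icam1 had 36780, 31393 and 46531 against 21914 to 25826 (median 23710.5), a change of 0.68 ± 0.11 (adjusted p = 4.12e-07).

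Immediate-early, AP-1 and KLF transcription factor genes rose in 14 of 29 tested cases and fell in none, at a median of 0.80, with the same counts under the other scaling; a filter at a mean of 50 left 23 members, of which 9 rose. Atf3, a repressor of inflammatory genes, had 15465, 16777 and 15809 against 5695 to 8642 (median 6557.5), a change of 1.26 ± 0.13 (adjusted p = 1.32e-14). Fosb, an AP-1 subunit, had 241, 384 and 76 against 17 to 40 (median 22.5), a change of 2.94 ± 0.44 (adjusted p = 3.07e-08). It varied widely among the Omipalisib samples, all of them above DMSO. Klf4, a factor of monocyte differentiation, and the orphan nuclear receptor Nr4a2 rose by 2.48 ± 0.44 and 2.37 ± 0.39 (adjusted p = 3.46e-06 and 4.23e-07). Of 15 tested feedback genes of MAPK signalling 6 rose and 1 fell under either scaling (median 0.32, and 0.21 with the other scaling). A filter at a mean of 50 left 10 members, of which 2 rose and 1 fell, and turned the median to -0.13. The phosphatase genes Dusp6 and Dusp4, whose products inactivate MAP kinases, had 116, 165 and 105 against 24 to 50 (median 32), and 981, 1279 and 752 against 235 to 452 (median 340.5). They rose by 1.89 ± 0.26 and 1.51 ± 0.40 (adjusted p = 1.47e-09 and 0.00219), while Errfi1, an inhibitor of the EGF receptor, fell from a DMSO median of 1621.5 (1338 to 1699) to 583, 847 and 333 (-1.52 ± 0.27, adjusted p = 2.96e-06). Dusp1, another such phosphatase, had no call, at 11104, 14699 and 6549 against 7541 to 27409 (median 21023.5).

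Of 14 tested genes of prostaglandin, nitric oxide, itaconate and plasminogen enzymes 6 rose and none fell under either scaling (median 0.22, and 0.11 with the other scaling). Ptgs2, the inducible cyclooxygenase, had 6515, 5238 and 8228 against 1280 to 3930 (median 2886), a change of 1.28 ± 0.32 (adjusted p = 0.00115). Plau, the urokinase plasminogen activator, had 1354, 1652 and 816 against 86 to 152 (median 102.5), a change of 3.50 ± 0.30 (adjusted p = 1.15e-19). Its receptor gene Plaur had 4580, 4990 and 3438 against 740 to 1983 (median 1129), a change of 1.88 ± 0.28 (adjusted p = 3.69e-08). No Omipalisib value of the 3 genes reached down to the DMSO range. Among 22 Toll-like receptor and adaptor genes 10 rose and 1 fell (median 0.37; 7 and 1 with the other scaling). Against the first DMSO set alone 6 rose, against the second 4, and without Omipalisib replicate 1 or 2 also 4. Tlr2, the receptor for bacterial lipopeptides, rose from a DMSO median of 14096 (12607 to 16015) to 22493, 20602 and 25707 (0.69 ± 0.10, adjusted p = 2.02e-09). Ticam2, the adaptor through which TLR4 reaches the interferon branch, rose from a DMSO median of 376.5 (294 to 465) to 757, 797 and 908 (1.12 ± 0.15, adjusted p = 4.41e-10). Traf3, a ubiquitin ligase of the same branch, rose by 0.99 ± 0.19 (adjusted p = 1.18e-05). Myd88, the adaptor of the other branch, fell from a DMSO median of 3703.5 (3534 to 4548) to 2861, 2571 and 3460 (-0.40 ± 0.12, adjusted p = 0.00969). The call of Myd88 was lost in 3 of 21 other settings, with the highest adjusted p, 0.128, without Omipalisib replicate 2. Of 21 tested MHC and costimulation genes 8 rose and none fell (median 0.22; 5 and none with the other scaling). The class II transactivator Ciita and the ligands Cd274, Cd86 and Cd80 rose by 1.84 ± 0.21, 1.68 ± 0.30, 1.82 ± 0.33 and 1.47 ± 0.36 (adjusted p = 7.93e-13, 2.63e-06, 4.48e-06 and 0.00110).

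Metabolic genes outside sterol synthesis are given next. Of 26 tested glycolysis and hypoxia genes 3 rose and 3 fell, at a median of 0.02 (2 and 6 at a median of -0.09 with the other scaling). Over all tested genes 17.5% rose and 8.16% fell. Hk1, a hexokinase, and Pfkp, a phosphofructokinase, rose from a DMSO median of 1027 (880 to 1292) to 1460, 1524 and 1457 and from a DMSO median of 771.5 (728 to 968) to 1228, 1330 and 1232. Hif1a, the oxygen-regulated transcription factor, fell from a DMSO median of 1484.5 (1196 to 1684 in 5 samples, 2501 in the other) to 858, 869 and 794. The log2 fold changes of these genes were 0.50 ± 0.13, 0.63 ± 0.17 and -0.89 ± 0.21 (adjusted p = 0.00127, 0.00339 and 4.80e-04), and their groups were apart. The other calls were the rise of P4ha1 (0.39, adjusted p = 0.00782) and the falls of Ldha (-0.41, adjusted p = 0.0318) and Ero1a (-0.65, adjusted p = 0.0330). The call of P4ha1 was lost in 3 of 21 other settings, with the highest adjusted p, 0.142, without Omipalisib replicate 3. The call of Ldha was lost in 8 of 21 other settings, with the highest adjusted p, 0.165, against the second DMSO set alone. The call of Ero1a was lost in 8 of 21 other settings, with the highest adjusted p, 0.204, against the first DMSO set alone. Among 69 nuclear genes of the respiratory chain none rose and 6 fell (median -0.06), where 8.16% of all tested genes fell. With the other scaling 17 fell, where 1751 of all 12714 fell, and 2 fell in a fit of the compared groups alone and against the second DMSO set alone. Ndufb9, a complex I subunit, fell by 0.51 (adjusted p = 1.02e-04) and Cox5a, of complex IV, by 0.48 (adjusted p = 9.14e-04). Of 40 cell cycle and replication genes 4 rose and 9 fell (median -0.09), again beside 17.5% and 8.16% of all tested genes. With the other scaling 3 rose and 11 fell. Against the second DMSO set alone 4 fell, and without Omipalisib replicate 1 the number was 5. The cyclin gene Ccnd3 fell from a DMSO median of 848 (543 to 1157) to 332, 376 and 326 (-1.19 ± 0.21, adjusted p = 2.62e-06). The mitotic kinase genes Aurka and Aurkb fell from a DMSO median of 308.5 (200 to 379) to 178, 154 and 126 and from a DMSO median of 883.5 (618 to 1103) to 506, 560 and 518. Their changes were -0.95 ± 0.17 and -0.70 ± 0.16 (adjusted p = 5.97e-06 and 3.60e-04). Cdkn1b, the cell cycle inhibitor p27, and Cdt1, which licenses replication origins, rose from a DMSO median of 195 (158 to 303) to 491, 449 and 354 and from a DMSO median of 398.5 (304 to 527) to 1110, 1462 and 1131 (1.02 ± 0.19 and 1.64 ± 0.34, adjusted p = 1.07e-05 and 9.18e-05). The replication clamp gene Pcna (0.67, adjusted p = 0.00116) and the proliferation marker Mki67 (0.50, adjusted p = 0.0311) rose as well. The call of Mki67 was lost in 8 of 21 other settings, with the highest adjusted p, 0.185, without DMSO set 1 replicate 3.

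In the marker lists themselves 3 of 12 tested neutrophil genes fell and none rose. They are the granule enzyme genes of immature neutrophils: Elane had 0, 1 and 1 with Omipalisib and 9 to 32 (median 21.5) with DMSO (-3.69 ± 0.39, adjusted p = 2.02e-14), Mpo 3, 3 and 1 against 6 to 21 (median 14) and Prtn3 2, 3 and 0 against 4 to 14 (median 9). All were low and every Omipalisib value was below every DMSO value. S100a8, a gene of mature neutrophils, had overlapping values of 124, 135 and 74 and 100 to 307 (median 149). Of the 4 tested dendritic cell genes 2 rose and 1 fell. Xcr1 rose from a DMSO median of 53.5 (44 to 72) to 108, 152 and 106 (1.11 ± 0.26, adjusted p = 5.10e-04). The migration receptor gene Ccr7 (1.33, adjusted p = 0.00241) rose and the transcription factor gene Batf3 (-0.90, adjusted p = 0.0181) fell. The call of Ccr7 was lost without Omipalisib replicate 2, adjusted p = 0.0673. The call of Batf3 was lost in 5 of 21 other settings, with the highest adjusted p, 0.223, without Omipalisib replicate 3. The growth factor receptor gene Kit (1.23, adjusted p = 0.0114) rose, and the osteoclast list's acid phosphatase gene Acp5 rose from a DMSO median of 60 (45 to 79) to 187, 203 and 185 (1.71 ± 0.28, adjusted p = 6.68e-07). The call of Kit was lost against the first DMSO set alone, adjusted p = 0.0511, and without Omipalisib replicate 1, adjusted p = 0.0722. Of the 26 tested macrophage genes 2 rose and 1 fell, at a median of 0.39. None of the 2 tested T and NK cell genes, the 1 tested B cell gene and the 3 tested fibroblast genes had a call. Mertk, given above, and the LPS co-receptor gene Cd14 (0.65, adjusted p = 0.0283) rose, and the lineage factor gene Spi1 (-0.51, adjusted p = 0.0324) fell. The call of Cd14 was lost in 8 of 21 other settings, with the highest adjusted p, 0.111, without Omipalisib replicate 2. The call of Spi1 was lost in 8 of 21 other settings, with the highest adjusted p, 0.194, without Omipalisib replicate 1.

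The largest rise by the rule for naming, which asks for separated groups and a mean of at least 50 in the higher group, was at Cxcr4, the receptor of the chemokine CXCL12, at 350, 535 and 214 against 2 to 55 (median 10), a change of 4.83 ± 0.53 (adjusted p = 2.28e-13). Rgs1, which ends G protein signalling from such receptors, followed at 7178, 10004 and 4641 against 147 to 561 (median 294.5), a change of 4.65 ± 0.43 (adjusted p = 4.89e-17). Next was Gdf15, a secreted stress hormone, at 992, 1755 and 821 against 41 to 88 (median 47), a change of 4.38 ± 0.45 (adjusted p = 8.37e-15). In all 3 the lowest Omipalisib sample was several times the highest DMSO sample. Hamp, the iron hormone hepcidin, had 157, 153 and 102 against 5 to 11 in 5 samples and 35 in the other (median 6.5), a change of 3.76 ± 0.52 (adjusted p = 2.15e-09). Hilpda, which limits the breakdown of stored lipid, rose from a DMSO median of 43.5 (27 to 119) to 783, 1053 and 300 (3.63 ± 0.50, adjusted p = 1.58e-09). The remaining largest rises were at the small GTPase gene Rhov, the zinc finger gene Zbtb10, the serotonin receptor gene Htr2a, the zinc finger gene Zfp874b and the membrane protein gene Tmem140, by 3.65, 3.53, 3.29, 3.26 and 3.26 on the log2 scale. Tmem140 overlaps Cyren, which had near-identical values and cannot be told apart from it. Other large falls, apart from Lipg, Sesn1 and the sterol genes given above, were at Rgs16, another regulator of G protein signalling, from a DMSO median of 111 (35 to 131) to 15, 8 and 28 (-2.44 ± 0.44, adjusted p = 5.09e-06). Fscn1, which bundles actin, fell from a DMSO median of 406 (279 to 1109) to 93, 84 and 165 (-2.15 ± 0.41, adjusted p = 1.74e-05). Pcyox1l, which resembles an enzyme that breaks down prenylated cysteine, fell by 1.61 (adjusted p = 1.88e-06).

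Several genes with the smallest adjusted p among those that rose fall in none of the lists. Rilpl2, a protein of ciliary and lysosomal transport, had 4425, 4557 and 4300 against 1122 to 1467 (median 1323.5), a change of 1.77 ± 0.10 (adjusted p = 1.95e-31). Arhgef3, an activator of the GTPase RhoA, had 3761, 3536 and 3640 against 913 to 1267 (median 1035), a change of 1.80 ± 0.11 (adjusted p = 1.97e-29). Npy, neuropeptide Y, had 1572, 1906 and 1810 against 502 to 569 (median 535), a change of 1.71 ± 0.11 (adjusted p = 1.12e-26). In each the groups lay far apart with little spread inside them. Rgcc, a regulator of the cell cycle, and the cyclin-like Cnppd1 rose by 2.65 ± 0.18 and 0.83 ± 0.06 (adjusted p = 6.40e-26 and 2.27e-23). Among those that fell, Cnn2, an actin-binding calponin, went from a DMSO median of 620 (571 to 738) to 302, 331 and 277 (-1.07 ± 0.10, adjusted p = 5.02e-18). The tubulin gene Tubb4b, which shares sequence with other tubulin genes, fell from a DMSO median of 4693 (3812 to 5475) to 1612, 2166 and 1464 (-1.44 ± 0.14, adjusted p = 2.67e-16).

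Omipalisib was then set beside inhibitors of the same kinases, 3 samples each: BGT226, PF04691502 and Apitolisib, which inhibit both PI3K and mTOR, and AZD2014, which inhibits mTOR. Their doses differ. Against the same DMSO samples the median log2 fold change of the sterol list was -0.35 with Omipalisib, -0.21 with BGT226, -0.16 with PF04691502, -0.03 with Apitolisib and -0.30 with AZD2014, beside 0.12, 0.21, 0.10, 0.11 and -0.02 over all tested genes. For the FOXO-linked list the medians were, in the same order, 0.88, 0.67, 0.78, 0.16 and 0.35, and for ribosomal protein genes 0.56, 0.40, 0.56, 0.49 and 0.60. The medians of the cytokine list were 0.96, 0.34, 0.26, 0.41 and -0.17, and those of the interferon list 0.57, 0.21, -0.09, -0.03 and -0.20. These comparisons share their DMSO samples and are given side by side.

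**Figure D3:**
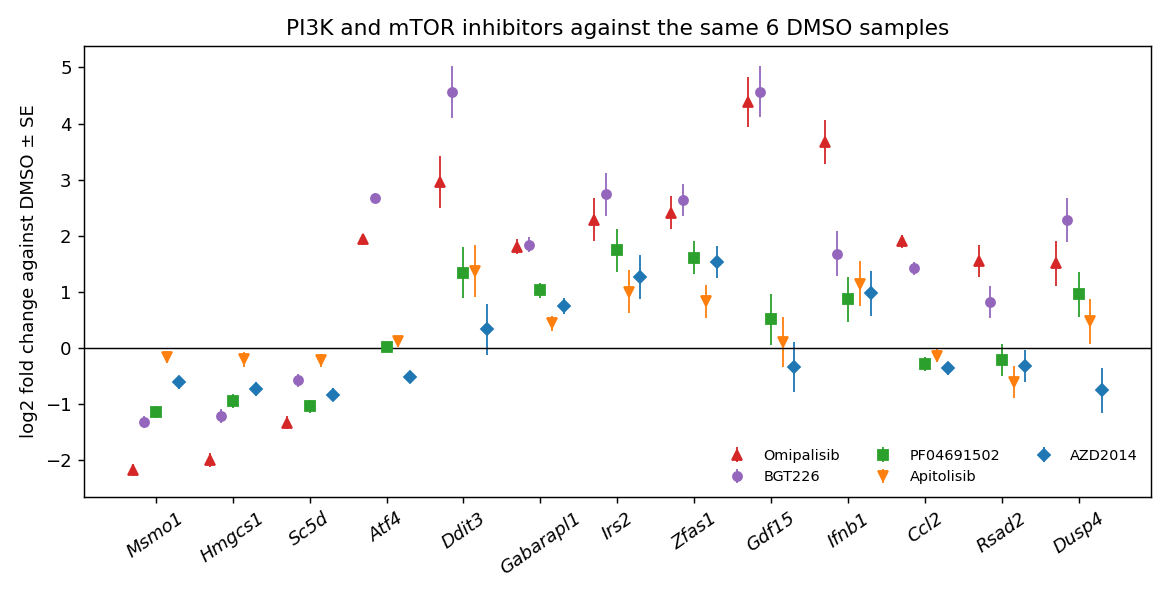
Log2 fold change against the same 6 DMSO samples (vertical axis, bars are standard errors) for 13 genes with Omipalisib and each of the other 4 inhibitors. Omipalisib lies lowest at Msmo1, Hmgcs1 and Sc5d and highest at Ifnb1, Ccl2 and Rsad2, and Omipalisib and BGT226 lie above the others at Atf4 and Gdf15.

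Direct tests compare the samples of the inhibitors with each other, and DMSO samples enter only the estimate of variance. No direct test against Apitolisib is given here. Against BGT226, 58 genes were higher with Omipalisib (0.456%) and 548 were lower (4.31%); with the other scaling 119 were higher and 357 lower. The total of 606 became 384 without Omipalisib replicate 1, 316 without Omipalisib replicate 3 and 297 without BGT226 replicate 2, but 950 with no filter, 180 of them higher. Deviations of same-numbered samples of the 2 inhibitors correlated at 0.311, 0.157 and 0.504, though Omipalisib replicate 2 correlated better with BGT226 number 1 (0.197). A block on the number gave 132 higher and 936 lower genes, 1068 in all (1208 with the mitochondrial share as well). Ifnb1 had 1727, 2207 and 726 with Omipalisib and 845, 378 and 137 with BGT226, a difference of 1.99 ± 0.46 (adjusted p = 0.00233), and the lowest Omipalisib sample lay below the highest BGT226 sample. This call was lost in a fit of the compared groups alone (adjusted p = 0.111) and without BGT226 replicate 3 (adjusted p = 0.143). Il33, an alarmin cytokine, had 57, 60 and 41 against 14, 2 and 4 (3.12 ± 0.59, adjusted p = 1.04e-04). Rn7sk, a small nuclear RNA that holds back transcription elongation, had 691, 604 and 307 against 218, 93 and 122 (1.89 ± 0.37, adjusted p = 1.68e-04). Both were separated in all samples, as was Adamts4, a protease of the extracellular matrix, higher by 1.82 ± 0.41 (adjusted p = 0.00158, and 0.0579 without BGT226 replicate 2). The libraries select polyadenylated RNA, so the reads on Rn7sk may not measure the level of that RNA. Lower with Omipalisib were the non-coding Snhg17, 22, 33 and 15 against 214, 231 and 217 (-3.25 ± 0.43, adjusted p = 7.41e-09), and Pvt1. The latter had 11, 12 and 10 against 63, 112 and 92 (-2.87 ± 0.44, adjusted p = 7.43e-07). The splicing regulator gene Ptbp2 had 39, 48 and 49 against 233, 305 and 248 (-2.50 ± 0.30, adjusted p = 1.79e-10). Arhgap33, a GTPase regulator, was lower by 2.56 (adjusted p = 1.87e-07). Atf4 was lower with Omipalisib by 0.74 on the log2 scale (adjusted p = 1.56e-07). Gabarapl1 did not differ by this test, with an unadjusted 95% interval of -0.34 to 0.28 for its log2 difference of -0.03, nor did Ppp1r15a, with -0.07 to 0.58 around 0.25.

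Against PF04691502, 589 genes were higher with Omipalisib (4.63%) and 164 were lower (1.29%). The total of 753 became 439 without Omipalisib replicate 3, 427 without PF04691502 replicate 2 and 400 in a fit of the compared groups alone. The lower genes numbered 60 and 102 without Omipalisib replicates 3 and 1, 88 and 103 without PF04691502 replicates 2 and 3, 42 in that fit and 305 with no filter. Here each Omipalisib sample correlated best with the same-numbered PF04691502 sample. A block on the number gave 920 higher and 469 lower genes, 1389 in all (1621 with the mitochondrial share as well). PF04691502 replicate 1 stood apart by a mitochondrial share of 4.45%, beside 1.71% and 1.91% in the other samples of that inhibitor; without it 678 genes differed. Gdf15 had 992, 1755 and 821 with Omipalisib and 110, 112 and 35 with PF04691502 (3.88 ± 0.52, adjusted p = 5.41e-09). Plagl1, a zinc finger factor that slows proliferation, had 608, 471 and 807 against 161, 44 and 107 (2.73 ± 0.36, adjusted p = 1.87e-09). Tnfaip8l1, of a family that binds phosphoinositides, had 33, 30 and 29 against 121, 107 and 103 (-1.81 ± 0.24, adjusted p = 3.53e-09). No sample of 1 inhibitor overlapped those of the other in these 3 genes. Other large differences were in Rgs1, higher by 2.70 (adjusted p = 4.56e-05), and in the chemokine gene Ccl24 and the proton-sensing receptor gene Gpr4, lower by 1.98 and 1.67 (adjusted p = 0.00396 and 0.00148). The call of Ccl24 was lost without PF04691502 replicate 1 (adjusted p = 0.0545). Atf4 differed by 1.92 ± 0.11, Ppp1r15a by 2.04 ± 0.16, Ccl2 by 2.18 ± 0.14 and Ifnb1 by 2.80 ± 0.46 (adjusted p = 2.66e-32, 4.05e-20, 1.84e-27 and 2.50e-06). For Irs2 the difference of 0.55 did not pass the test (unadjusted 95% interval -0.33 to 1.43).

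Against AZD2014, 2169 genes were higher with Omipalisib (17.1%) and 340 were lower (2.67%), and with the other scaling 1601 and 850. The total of 2509 became 1559 without AZD2014 replicate 2. Each Omipalisib sample correlated best with the same-numbered AZD2014 sample. A block on the number gave 2741 higher and 681 lower genes, 3422 in all (3675 with the mitochondrial share as well). The lower genes numbered 183 without Omipalisib replicate 3, 210 and 215 without AZD2014 replicates 2 and 3, and 222 in a fit of the compared groups alone. Dusp1 had 11104, 14699 and 6549 with Omipalisib and 927, 683 and 952 with AZD2014 (3.60 ± 0.46, adjusted p = 2.57e-10). Against DMSO it had no call with Omipalisib, and its AZD2014 values lay below every DMSO value given above. Gdf15 had 992, 1755 and 821 against 28, 61 and 42 (4.73 ± 0.52, adjusted p = 5.87e-13). Hamp had 157, 153 and 102 against 9, 6 and 5 (4.18 ± 0.60, adjusted p = 1.46e-08). All 3 were separated in every sample, and the small GTPase gene Rhov was higher by 4.11 (adjusted p = 1.74e-06). Lower with Omipalisib was Rgs16, 15, 8 and 28 against 72, 106 and 124 (-2.62 ± 0.51, adjusted p = 2.99e-05). Il4i1, a secreted amino acid oxidase, had 577, 558 and 1163 against 2799, 1922 and 3272 (-1.85 ± 0.41, adjusted p = 2.60e-04). Ccl24 was lower by 2.26 (adjusted p = 2.17e-04). Atf4, Ccl2 and Rsad2 were higher with Omipalisib by 2.45 ± 0.11, 2.26 ± 0.14 and 1.87 ± 0.33 (adjusted p = 1.75e-42, 5.43e-29 and 4.91e-06). Irs2 did not pass the test, at a difference of 1.02 (adjusted p = 0.0931). It passed in a fit of the compared groups alone (adjusted p = 0.0285) and with a block on the replicate number (adjusted p = 0.0400).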

How the data were processed

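RNA was sequenced after SMART-seq2 library preparation, which selects polyadenylated RNA and does not mark strand. The authors aligned reads to mm10 with TopHat2 2.1.1, removed reads in blacklisted regions with bedtools 2.29.2, counted reads on exons of RefSeq curated genes with Bioconductor packages in R 3.6.2 and scaled them on genes that did not vary; DESeq2 was what the authors used for their own tests, without its normalization. The deposited score is this scaled count, rounded to a whole number, for 45070 genes in 180 samples. Since counting is not stated to use strand, genes that overlap on opposite strands (Tmem140 and Cyren, for example) cannot be told apart, and values of genes with near-identical copies, such as ribosomal protein genes, are uncertain.

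Values were read with the R package data.table (1.17.8), and limma 3.58.1 in R 4.3.3 was run on log2(score + 1) with a variance trend over all 59 treatment groups and the 12714 genes with a mean of at least 10; DMSO was 1 group of 6. P-values were adjusted by Benjamini-Hochberg for each comparison. Lists, sums and permutation tests used Python 3.11.15, NumPy 2.4.6, pandas 2.3.3 and SciPy 1.17.1, and figures matplotlib 3.10.9. Reads per sample were estimated by likelihood from the spacing of low values; in 1 DMSO sample no spacing stood out. Reads on genes were 11400000 to 17000000 in the Omipalisib and DMSO samples with an estimate, so values near 10 rest on few reads and small changes there cannot be seen.

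The comparison, and so its members, and the gene lists were chosen with earlier results of these data known; the treatment label then gave the samples. Lists are described by counts and medians and were not tested. Named genes, which leave out predicted and microRNA genes, are up to 5 called members of each list in each direction by smallest adjusted p. Also named are the 12 largest rises and falls with separated groups and a mean of at least 50 in the higher group. The others are the 10 smallest adjusted p in each direction and the 4 largest differences in each direction against BGT226, PF04691502 and AZD2014. Not all of these are printed, and a few items are not reported here. Foxo3, Foxo4, Klf4, Insr, Sqle, Srebf2, Sqstm1, Nupr1, Nars, Il12b, members that complete a count of 5 or fewer, and list members without a call were chosen after their values were seen. Alternatives were other pseudocounts, filters and scaling, each DMSO set alone, a fit of the compared groups alone, a block on replicate number with and without the mitochondrial share, no variance trend, a fold threshold, and leaving out each sample. Leaving out each sample of the other inhibitors and the block between DMSO sets were added after the data were seen.

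The replicate numbers come from the labels. Deviations from the group means of samples numbered 1, 2 and 3 correlated at 0.553, 0.354 and 0.544 between the DMSO sets, at 0.311, 0.157 and 0.504 between Omipalisib and BGT226 and at 0.349, 0.121 and 0.364 between Omipalisib and PF04691502, so results with a block on the number stand beside these comparisons. Omipalisib replicate 2 correlated better with BGT226 number 1 (0.197) than with number 2. With AZD2014 the same-numbered correlations, 0.376, 0.0406 and 0.215, were each the best of their sample, and block results stand there too. The check was made on the data, after the fits were seen.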

Additional observations from a re-analysis of the deposited data

Results flagged for a closer look

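Each group of values behind a gene that was named or could be named was searched for a single sample far from the others, by the gap to its nearest neighbour relative to the range of the 6 DMSO samples. Of 256 groups 16 stood out; about 1 in 20 groups would do so by chance alone. Replicate 1 of the second DMSO set was the highest for Ifnb1 (262, the other 5 at 75 to 129), Hamp (35, others 5 to 11), Ddit3 (76, others 22 to 36), Cd80 (73, others 26 to 41), Plk2 (1394, others 1004 to 1122) and Foxo3 (68, others 17 to 35), and the lowest for Cyp51 (999, others 1199 to 1280). Replicate 3 of the first set was the lowest for Klf6 (5409, others 6907 to 7442), Traf3 (145, others 265 to 317), Bcl2l11 (5795, others 6770 to 7159) and Pik3cg (321, others 796 to 973). Replicate 2 of the second set was the highest for Hif1a (2501, others 1196 to 1684), Ifnar1 (4866, others 3459 to 3931) and Txnrd1 (2886, others 2114 to 2252), and the lowest for Clk4 (53, others 97 to 109) and Hmox1 (2986, others 3586 to 3805). No technical reason for these values was tested.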

How the results depend on the processing

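The rise of Ifnb1 kept its direction and its call in all 21 settings, with a log2 fold change of 3.34 to 4.15 when single samples were left out. Of 217 called genes that were named or could be named, 165 kept their call in every setting, 52 lost it in at least 1, and none reversed; the fit of the compared groups alone and leaving out Omipalisib replicate 1 each ended 32 of these calls. Of 1218 list counts under other settings 1067 were within 1.5 times. Higher genes numbered 1366 and lower genes 505 in the fit of the compared groups alone, which has fewer samples to estimate spread, and 714 and 149 at a log2 fold change of at least 1. Lower genes numbered 1751 with the median of ratios. Leaving out 1 sample gave 1470 to 2587 higher and 629 to 1368 lower genes. Genes differing from BGT226 numbered 950 with no filter, 236 at the fold threshold and 297 to 517 without 1 sample of either inhibitor; from PF04691502, 400 in the fit of the compared groups alone, 248 at the fold threshold and 427 to 678 without 1 sample; from AZD2014, 1107 at the fold threshold and 1559 to 2313 without 1 sample. The mitochondrial difference was 0.592, 0.469 and 0.919 points without Omipalisib replicate 1, 2 and 3 (exact permutation p of 0.179, 0.286 and 0.0357, where 0.0357 is the smallest possible). The cause of these shifts was not tested.

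Omipalisib and DMSO samples share only a replicate number. The deviations of Omipalisib samples 1, 2 and 3 from their group correlated with those of the same-numbered DMSO samples, averaged over sets, at 0.286, -0.163 and 0.0530; replicate 2 correlated best with DMSO number 1 (0.191) and replicate 3 with DMSO number 2 (0.402). With AZD2014 the same-numbered correlations were 0.376, 0.0406 and 0.215, each the best of its sample. A block on the number gave 1733 lower genes, 1068 genes differing from BGT226 and 1389 from PF04691502, and the mitochondrial difference of 0.660 points had an exact permutation p of 0.0370, the smallest possible with 27 assignments; with the block and the mitochondrial share the counts were 1680, 1208 and 1621. Genes lower than with AZD2014 numbered 681 with the block and 826 with the share as well. With the block alone Il6, Isg15, Il33 and Pik3cg against DMSO and Irs2 against AZD2014 passed the test (adjusted p = 0.0329, 0.0188, 0.0108, 0.0349 and 0.0400); with the mitochondrial share as well Isg15, Il33, Pik3cg and S100a8 passed (adjusted p = 0.0292, 0.0223, 0.0280 and 0.00163). The block changed no call of a gene named against BGT226 or PF04691502. Genes with values near 10 rest on few reads.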
